A study of Homo sapiens with 6 samples.

Results

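The 39 genes described here encode glucose transporters, the enzymes of glycolysis, lactate dehydrogenases and lactate transporters, the pyruvate dehydrogenase complex with its regulators, and enzymes of glycogen metabolism. They were chosen by these roles and with their TPM and fold changes in the same libraries already known, out of 61731 genes and loci in the deposited table. All 39 were found by symbol. The cells were U87-MG, an established human glioblastoma line, and RNA of 6 libraries was sequenced in read pairs. The 3 NC libraries came from negative control cells, and the 3 KD libraries from cells labelled as a knockdown of CHRM, which the study made with lentivirus against CHRM3, the M3 muscarinic acetylcholine receptor. The sources do not say which of the study's knockdown sequences the KD cells carried, or whether replicates were grown as separate cultures, so the errors and calls below rest on the spread between these libraries, which may be technical. The authors gave the level of each gene as TPM (a share of the library that takes transcript length into account, scaled to the same total), which holds no count of reads, and the sequencing depth is therefore unknown.

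CHRM3 was listed at 0.02, 0.09 and 0.13 TPM in NC replicates 1, 2 and 3 and at 0.13, 0.01 and 0.02 TPM in KD replicates 1, 2 and 3. The groups overlapped near the rounding step of the table, so the knockdown could not be checked in these libraries. By other measurements, the paper reports an efficient knockdown of CHRM3 in U87-MG cells. KD below stands for the libraries labelled as knockdown. Between 13518 and 13664 genes per library were at 1 TPM or above. Transcripts of the mitochondrial genome took 5.32% to 5.47% of the NC libraries and 4.41% to 4.87% of the KD libraries, and without them the median log2 fold change of the listed genes was 0.24 in place of 0.25. Of the markers of the line, VIM, the intermediate filament of mesenchymal cells, was at 6574 TPM in NC and 7376 TPM in KD on average, and the hyaluronan receptor CD44 at 597.3 and 473.5 TPM, whereas the astrocyte filament GFAP was between 0.87 and 1.46 TPM and the neural stem cell factor SOX2 at most 0.09 TPM in any library. NES, the intermediate filament of neural stem cells, was low, between 1.98 and 2.54 TPM in NC and between 3.23 and 4.01 TPM in KD. It was higher in each KD library than in any NC library, and passed the test described below. VIM and CD44 also passed that test, with log2 fold changes of 0.17 and -0.33 (KD minus NC) and no overlap of the groups, and GFAP did not. OLIG2 and S100B were at most 0.56 TPM. The 5 leukocyte and 3 endothelial markers were at most 0.19 TPM in every library, and of the 3 epithelial markers EPCAM lay between 0.63 and 1.44 TPM while CDH1 and KRT5 were at most 0.11 TPM.

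Glycolysis turns glucose into pyruvate in the cytosol, and pyruvate is then either reduced to lactate and exported or carried into mitochondria and oxidised by the pyruvate dehydrogenase complex. Pyruvate dehydrogenase kinases switch that complex off and its phosphatases switch it on, while the PFKFB enzymes set the level of the main activator of phosphofructokinase. Tumour cells, glioblastoma among them, are known for high glucose uptake and lactate output even with oxygen present, and many glycolytic genes are known targets of the hypoxia-inducible factors and of MYC. Most steps are encoded by several isozyme genes that differ in tissue distribution and kinetics.

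In NC cells, the level of these genes in TPM spanned a wide range, from GAPDH, at rank 5 of the whole table by its mean over all libraries, to PDK4, a kinase of pyruvate dehydrogenase at 0.173 ± 0.0351 TPM (SD, n = 3). The 15 glycolytic enzyme genes from hexokinase to pyruvate kinase together held 20881 ± 207 TPM in NC and 26936 ± 264 TPM in KD (SD, n = 3 each), which is 2.09% and 2.69% of the library. All 3 KD libraries lay above all 3 NC libraries in this sum, and the mean was 29% higher. The steps were not alike. Hexokinase was at 289.3 ± 2.52 TPM in NC and 291.6 ± 1.43 TPM in KD (SD, n = 3 each), and phosphofructokinase at 417.4 ± 4.94 and 413.7 ± 7.07 TPM, and the groups overlapped at both steps. Aldolase, by contrast, was at 2559 ± 4.88 TPM in NC and 3357 ± 80.0 TPM in KD, and enolase at 3515 ± 33.9 and 4328 ± 58.6 TPM (SD, n = 3 each), with every KD library above every NC library.

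**Figure D1:**
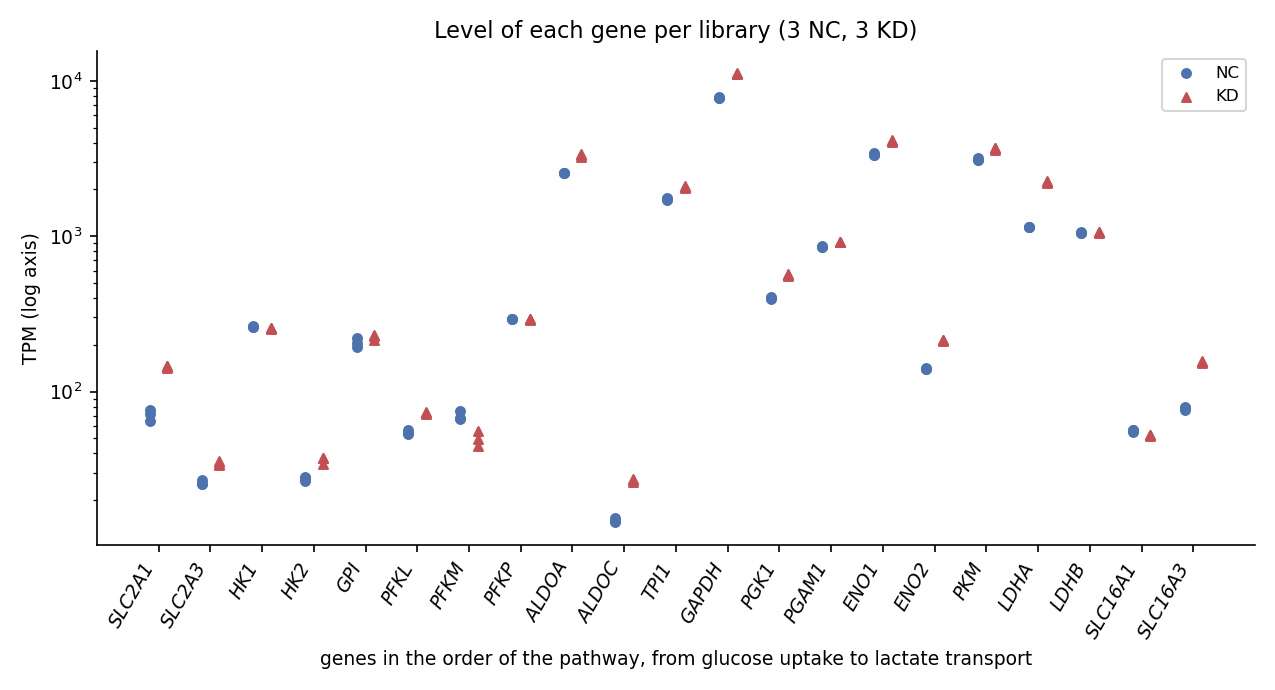
TPM of 21 genes (log axis) in the order of the pathway, from glucose uptake to lactate transport, with 1 point per library (circles: 3 NC libraries; triangles: 3 KD libraries). The points of a group lie close together, the enzymes from ALDOA to LDHB are the most abundant apart from ALDOC and ENO2, and the KD points of SLC2A1, LDHA and SLC16A3 stand clear above the NC points.

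Differences were fitted for the 13722 genes that averaged 1 TPM or more, on log2(TPM + 1), with limma, and a gene was called at a Benjamini-Hochberg adjusted p under 0.05 over all of them. Of the 39 genes, 38 were tested, since PDK4 was too low. Because the genes were listed with results of this contrast known, their values are a description and no p-value is given for them. There were 26 calls among the 38, beside 36.1% of all genes tested, with 22 higher (57.9%, beside 12.1% of all genes) and 4 lower (10.5%, beside 24.0%). The median log2 fold change was 0.25, beside -0.06 over all genes tested. At a log2 fold change of at least 1 as well, SLC2A1 and PDK1 were called, beside 1.87% of all genes. The groups did not overlap for 31 of the 38 genes, beside 50.2% of all genes, and KD lay above NC for 25 of these and below it for 6, beside 17.4% and 32.8% of all genes. Abundant genes are called more often, and of the 16 listed genes that averaged 100 TPM or more, 11 were called higher and the other 5 were not called, while among all 1424 genes at that level 65.0% were called, 26.8% higher and 38.1% lower.

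**Figure D2:**
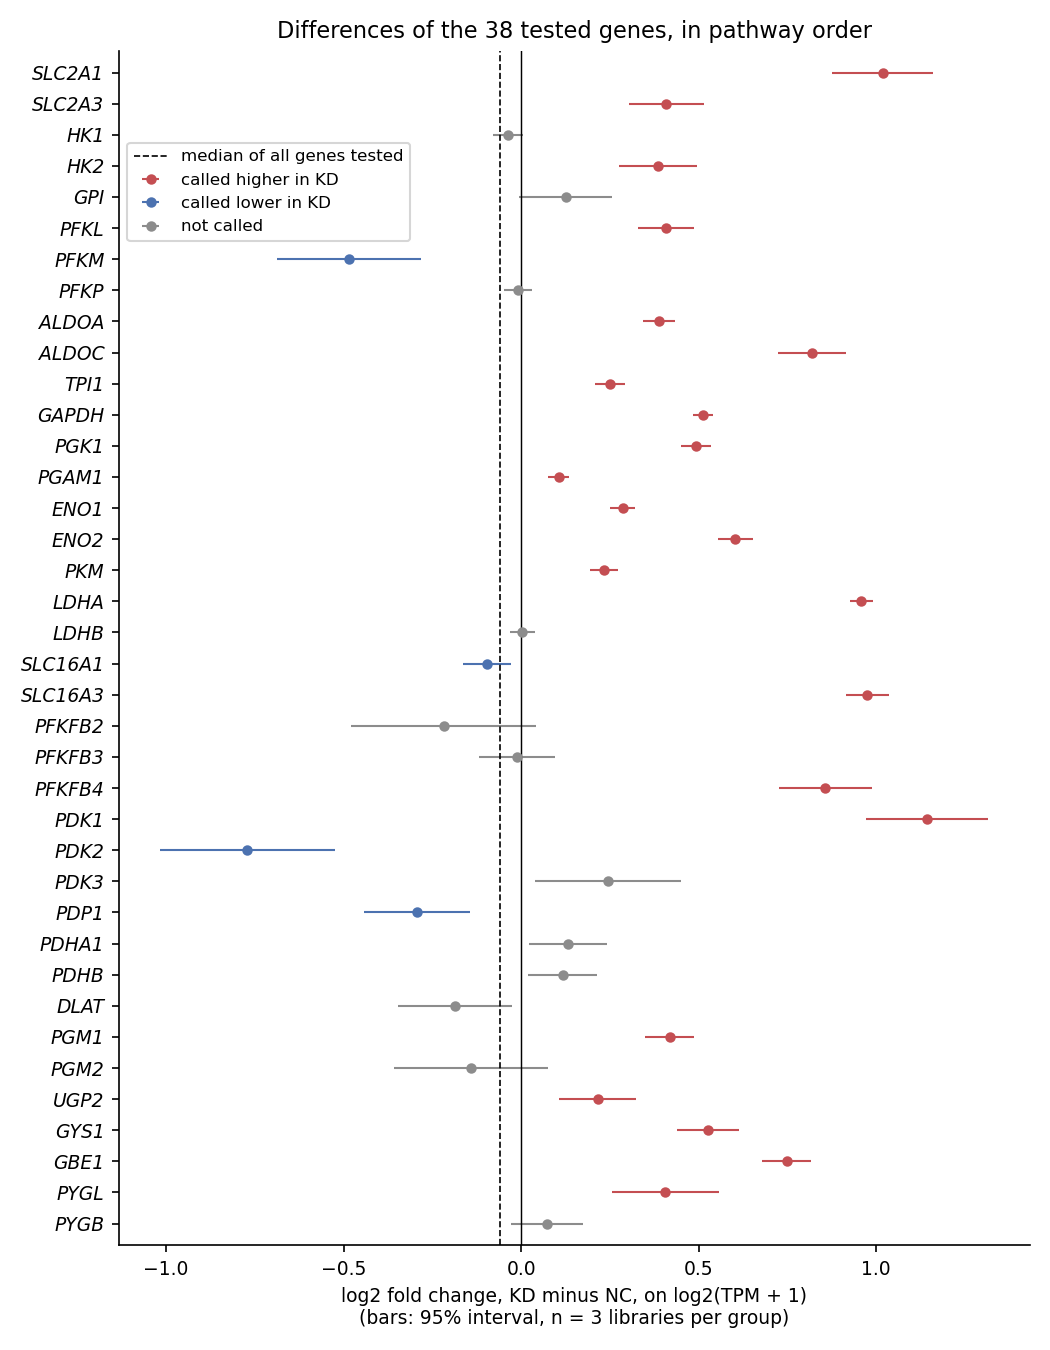
Fitted log2 fold change (KD minus NC, on log2(TPM + 1)) of the 38 tested genes in pathway order, with 95% intervals from limma (n = 3 libraries per group). Red marks the 22 genes called higher, blue the 4 called lower and grey the 12 not called, and the dashed line is the median of all genes tested, at -0.06.

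SLC2A1 (ENSG00000117394, chromosome 1 from 42925375 to 42959176 in GRCh38) encodes GLUT1, the basal glucose transporter of most cells and of the blood-brain barrier. It was at 71.96, 76.21 and 64.68 TPM in NC replicates 1, 2 and 3 and at 145.29, 141.29 and 146.80 TPM in KD replicates 1, 2 and 3. Every KD library was far above every NC library, and the level rose 2.04-fold (log2 fold change 1.02, standard error 0.0590). SLC2A3, which encodes the high-affinity neuronal transporter GLUT3, was at 25.29, 26.90 and 25.29 TPM in NC and 35.94, 33.42 and 34.48 TPM in KD. It rose less (log2 fold change 0.41, standard error 0.0436), so that SLC2A1 made up 73.3% ± 1.19 of the summed TPM of both in NC and 80.7% ± 0.440 in KD (SD, n = 3 each).

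Hexokinases trap glucose in the cell by phosphorylation. HK1, the housekeeping isozyme bound to mitochondria, was at 258.95, 262.07 and 264.13 TPM in NC and at 255.48, 254.57 and 255.51 TPM in KD, a narrow gap that was not called (log2 fold change -0.04, 95% interval -0.08 to 0.01) and that changed sign under median-of-ratios and quantile scaling. HK2, the inducible isozyme of muscle and of many tumours, was at 28.12, 26.69 and 27.90 TPM in NC and at 37.09, 37.59 and 34.40 TPM in KD. All KD libraries were above all NC libraries, and HK2 rose by a log2 fold change of 0.39 (standard error 0.0455). HK1 remained the more abundant by far, and the share of HK2 in the sum of both was 9.53% ± 0.277 in NC and 12.5% ± 0.532 in KD (SD, n = 3 each). GPI, which converts glucose phosphate to fructose phosphate and is also secreted as a motility factor, ranged from 192.70 to 221.21 TPM in NC and from 215.12 to 231.32 TPM in KD, which overlapped, and it was not called (log2 fold change 0.13, 95% interval -0.01 to 0.26), though it was called higher in 3 of 16 alternatives.

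Phosphofructokinase, the committed step of glycolysis, is a tetramer of liver (PFKL), muscle (PFKM) and platelet (PFKP) subunits, and its 3 genes were called higher, lower and neither. PFKL was at 53.01, 54.33 and 56.57 TPM in NC and 73.68, 72.98 and 71.70 TPM in KD, and rose by a log2 fold change of 0.41 (standard error 0.0326). PFKM was at 66.89, 74.94 and 67.86 TPM in NC and 49.54, 55.36 and 44.51 TPM in KD, and fell (log2 fold change -0.48, standard error 0.0842). Neither pair of groups overlapped. PFKP, the main subunit here, was between 291.92 and 294.70 TPM in NC and between 289.77 and 292.23 TPM in KD, with a log2 fold change of -0.01 (95% interval -0.05 to 0.03). It was not called, but it was called higher, by 0.06, under median-of-ratios and under quantile scaling, which move the median of all genes up by that amount. Of the summed TPM of the 3 subunits, PFKL and PFKM held 13.1% ± 0.353 and 16.7% ± 0.909 in NC and 17.6% ± 0.185 and 12.03% ± 1.12 in KD (SD, n = 3 each), while PFKP held 70.2% ± 0.797 and 70.4% ± 0.974.

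Of the enzymes from aldolase to pyruvate kinase, all 9 genes were called higher, beside 12.1% of all genes tested and 26.8% of those at 100 TPM or more. GAPDH (ENSG00000111640, chromosome 12 from 6533927 to 6538374), which oxidises glyceraldehyde phosphate and is in wide use as a reference gene, was at 7765.50, 7705.70 and 7860.35 TPM in NC and at 11063.17, 11209.41 and 11011.83 TPM in KD. The groups were far apart, and GAPDH rose by 42.7% (log2 fold change 0.51, standard error 0.0119). PGK1, which makes the first ATP of the pathway, was at 404.17, 402.89 and 397.01 TPM in NC and 557.46, 566.89 and 570.91 TPM in KD and rose by 40.8%, also with no overlap. ALDOA, the ubiquitous aldolase, rose from 2544 ± 4.65 to 3330 ± 80.2 TPM (SD, n = 3 each), and TPI1, triose phosphate isomerase, from 1740 ± 31.4 to 2070 ± 21.3 TPM (SD, n = 3 each). The log2 fold changes of the others were 0.29 for ENO1, the main enolase (standard error 0.0145), 0.23 for PKM, pyruvate kinase (standard error 0.0166), and 0.11 for PGAM1, phosphoglycerate mutase (standard error 0.0125). The differences of PKM, TPI1 and PGAM1 exceeded the spread between libraries, with all KD values above all NC values. The brain isozymes of the same steps were scarcer in TPM and had larger log2 fold changes. ALDOC was at 14.41, 14.67 and 15.23 TPM in NC and 26.23, 27.02 and 27.25 TPM in KD, a log2 fold change of 0.82 (standard error 0.0398) beside 0.39 for ALDOA. ENO2, the enolase of neurons, was at 138.78, 140.32 and 142.70 TPM in NC and 215.84, 213.30 and 212.98 TPM in KD, a log2 fold change of 0.60 (standard error 0.0203) beside 0.29 for ENO1. They nevertheless stayed minor forms, with ENO2 at 4.0% ± 0.0242 of enolase TPM in NC and 4.95% ± 0.0694 in KD, and ALDOC at 0.577% ± 0.0158 and 0.800% ± 0.0301 of aldolase TPM (SD, n = 3 each).

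The lactate dehydrogenase genes, near parity in NC, were far apart in KD. LDHA (ENSG00000134333, chromosome 11 from 18394388 to 18408425), the muscle-type lactate dehydrogenase subunit that favours lactate formation, was at 1154.88, 1153.93 and 1144.57 TPM in NC and at 2208.94, 2245.26 and 2256.01 TPM in KD. The coefficient of variation was 0.495% in NC and 1.1% in KD, and LDHA rose 1.94-fold (log2 fold change 0.96, standard error 0.0133). LDHB, the heart-type subunit that favours lactate use, was at 1055.82, 1053.03 and 1070.88 TPM in NC and at 1062.82, 1071.69 and 1051.29 TPM in KD. Those values overlapped, and LDHB was not called (log2 fold change 0.00, 95% interval -0.03 to 0.04), although median-of-ratios scaling called it higher by 0.07 and quantile scaling gave -0.03. LDHA made up 52.1% ± 0.347 of the summed TPM of both subunits in NC and 67.8% ± 0.363 in KD (SD, n = 3 each). A share within a library is the same whatever factor the library is multiplied by.

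The lactate carriers also differed from each other. SLC16A3 (chromosome 17 from 82228397 to 82261129) encodes MCT4, a lactate exporter of highly glycolytic cells, and was at 80.01, 76.48 and 78.63 TPM in NC and at 156.56, 153.24 and 155.30 TPM in KD. It rose 1.98-fold with no overlap, by a log2 fold change of 0.98 (standard error 0.0256). SLC16A1, which encodes the widespread carrier MCT1, was at 54.55, 56.50 and 56.68 TPM in NC and at 52.44, 52.26 and 52.07 TPM in KD. It was called lower (log2 fold change -0.10, standard error 0.0279), and the call was lost in 9 of the 16 alternatives, among them both scalings and each replicate left out apart from NC replicate 1. SLC16A3 made up 58.4% ± 0.998 of the summed TPM of both carriers in NC and 74.8% ± 0.191 in KD (SD, n = 3 each). The sum itself was 134.3 ± 1.19 TPM in NC and 207.3 ± 1.75 TPM in KD (SD, n = 3 each).

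**Figure D3:**
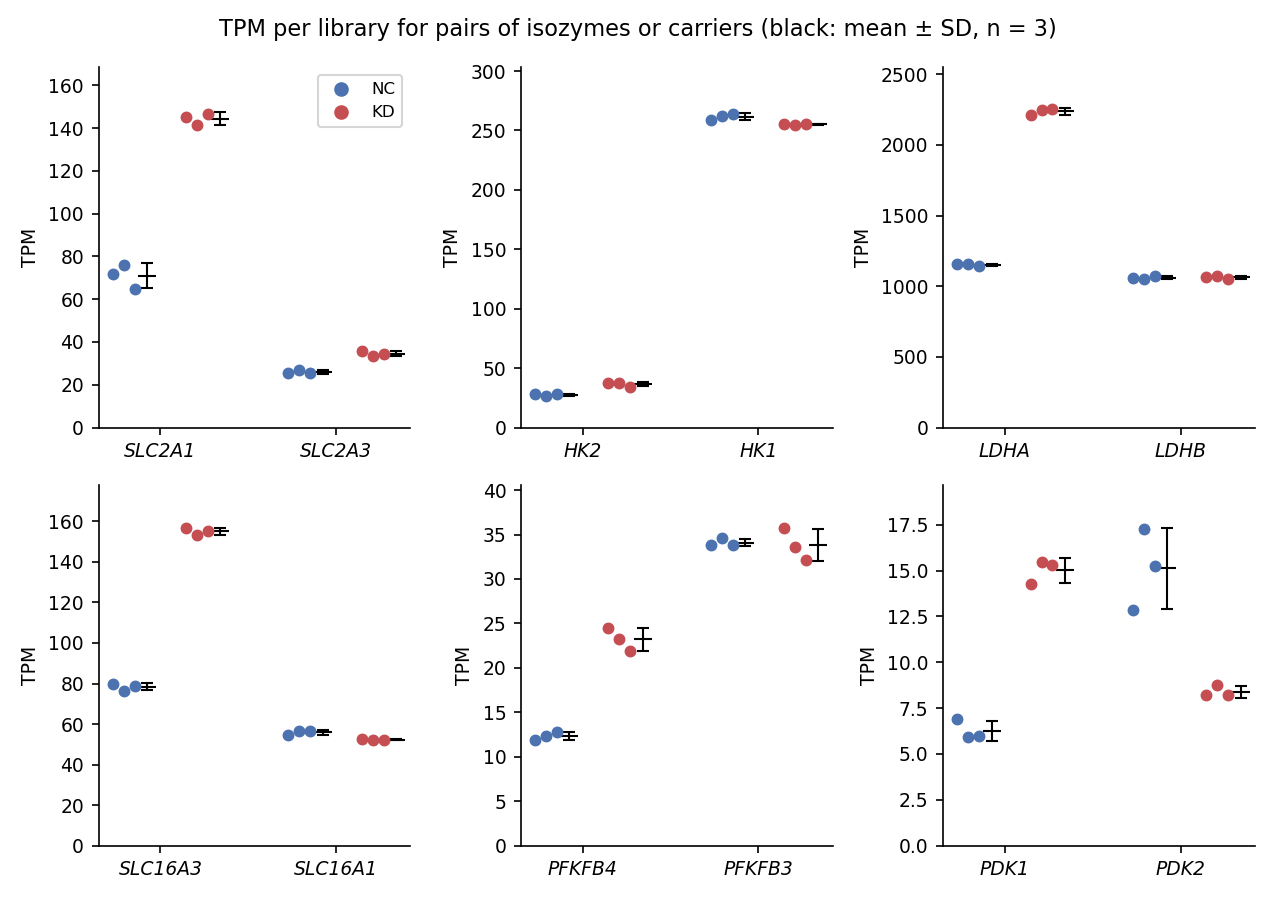
TPM per library (points: 3 NC in blue, 3 KD in red; black: mean ± SD, n = 3) for 6 pairs of isozymes or carriers, on linear axes from 0. SLC2A1, LDHA, SLC16A3, PFKFB4 and PDK1 are 1.88-fold to 2.4-fold higher in KD, while HK1, LDHB, SLC16A1 and PFKFB3 sit at about the same level in both groups and PDK2 is lower in KD.

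Since many of these genes rose together, their promoters were searched for ACGTG, the core of the hypoxia response element, on both strands. The window was the 250 bases before each RefSeq start (GRCh38.p14), and CACGTG, which holds the core on both strands and is also the E-box of MYC-type factors, was counted as 1 site. The following sequences, 5′ to 3′ on the strand of the gene with the matches in capitals, show the whole window of SLC16A3 and HK2, and 30 bases around a pair of sites for LDHA and PGK1, as examples among the genes that rose.
LDHA: actcaCACGTGggttcccgCACGTccgccg
SLC16A3: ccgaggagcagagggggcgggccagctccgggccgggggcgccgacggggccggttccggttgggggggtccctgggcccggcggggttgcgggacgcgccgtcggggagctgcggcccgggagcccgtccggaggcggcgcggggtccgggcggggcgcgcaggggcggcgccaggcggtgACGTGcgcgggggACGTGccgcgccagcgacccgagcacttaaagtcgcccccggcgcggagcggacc
HK2: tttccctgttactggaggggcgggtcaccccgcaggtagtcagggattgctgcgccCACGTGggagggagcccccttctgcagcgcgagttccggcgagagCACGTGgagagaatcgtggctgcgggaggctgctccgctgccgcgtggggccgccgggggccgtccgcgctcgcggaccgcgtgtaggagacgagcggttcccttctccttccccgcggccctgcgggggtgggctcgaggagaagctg
PGK1: cggACGTGacaaacggaagccgCACGTctc
LDHA had 2 windows. Its first held 3 sites, 185, 87 and 73 bases before the start, of which the last 2 are printed (chr11:18394471-18394500, plus strand). The other window of LDHA held 0 sites. SLC16A3 (chr17:82228792-82229041, plus strand) held 2 sites, 68 and 55 bases before the start. Both sites of HK2 (chr2:74834920-74835169, plus strand) read CACGTG, 194 and 149 bases before the start, and PGK1 held 2 sites, 202 and 183 bases before the start (chrX:78104043-78104072, plus strand). Genes with several starts have several windows, and those shown of LDHA, SLC16A3 and HK2 are 1 of 2, 1 of 5 and 1 of 2. In the only window of LDHB there was no site. Windows were found for 35 of the 39 genes, and SLC2A3, SLC16A1, PFKFB2 and PDP1 had none in the table. At least 1 site was in a window of 22 of the 35 genes (62.9%), and in 25.3% of the 15843 protein-coding genes of the table. By window the shares were 37.9% of 66 and 20.2% of 22199. Among the listed genes called higher a site was found for 13 of 21 (61.9%) and among the others for 9 of 14 (64.3%), while by window the shares were 47.1% of 34 and 28.1% of 32, with 7 windows each for HK1 and PFKM. SLC2A1, ENO1, PKM and PFKFB4 were among the genes called higher with 0 sites in their windows. A match of these letters is a description of the sequence and does not show that a factor binds there.

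The PFKFB genes encode the bifunctional enzymes that make and degrade the activator of phosphofructokinase. PFKFB4 was at 11.92, 12.33 and 12.84 TPM in NC and 24.50, 23.26 and 21.91 TPM in KD. Its lowest KD value was well above its highest NC value, and it rose by a log2 fold change of 0.86 (standard error 0.0548). PFKFB3, the most abundant of the 3 and the form with the strongest kinase activity, ranged from 33.85 to 34.56 TPM in NC and from 32.12 to 35.73 TPM in KD, which overlapped (log2 fold change -0.01, 95% interval -0.12 to 0.10, not called, and of the opposite sign under both scalings). PFKFB2 was low, at 2.41 ± 0.144 TPM in NC and 1.94 ± 0.247 TPM in KD (SD, n = 3 each), and was not called. PFKFB4 accordingly took 25.3% ± 0.819 of the summed TPM of these genes in NC and 39.4% ± 0.177 in KD (SD, n = 3 each).

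At the entry to mitochondrial oxidation, PDK1 and PDK2 moved in opposite directions. PDK1 (chromosome 2 from 172555373 to 172608669), a kinase that inactivates pyruvate dehydrogenase, was at 6.90, 5.90 and 5.97 TPM in NC and 14.26, 15.48 and 15.29 TPM in KD. The groups were far apart, and PDK1 rose 2.4-fold, by a log2 fold change of 1.14 (standard error 0.0715), the largest difference among the 38 genes. PDK2, the kinase with the widest tissue distribution, was at 12.87, 17.26 and 15.24 TPM in NC and 8.20, 8.76 and 8.22 TPM in KD. The NC values were more scattered than the KD values but did not overlap with them, and PDK2 fell (log2 fold change -0.77, standard error 0.102). PDK3 was at 3.34 ± 0.263 TPM in NC and 4.14 ± 0.262 TPM in KD (SD, n = 3 each), and was not called, though it was called higher in 3 of its 15 alternatives, both scalings among them. PDK4, the kinase of fasting and fatty acid use, was at most 0.21 TPM in any library and was not tested. Of the summed TPM of the 4 kinases, PDK1 held 25.3% ± 4.07 in NC and 54.3% ± 0.390 in KD, and PDK2 60.5% ± 4.59 and 30.4% ± 0.849 (SD, n = 3 each). PDP1, a phosphatase that reactivates the complex, was at 24.64, 25.07 and 25.65 TPM in NC and 21.34, 21.28 and 18.48 TPM in KD, and fell (log2 fold change -0.29, standard error 0.0619). The catalytic genes of the complex were not called. PDHA1 and PDHB, the subunits of its first enzyme, had log2 fold changes of 0.13 (95% interval 0.02 to 0.24) and 0.12 (0.02 to 0.22), and DLAT, its second enzyme, -0.19 (-0.35 to -0.03). Under both scalings PDHA1 and PDHB were called higher.

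Of the 7 glycogen genes 5 were called higher, in synthesis and in breakdown, beside 12.1% of all genes tested. For synthesis, GBE1, the branching enzyme, was at 44.94, 44.20 and 44.84 TPM in NC and 77.53, 75.55 and 73.95 TPM in KD and rose by a log2 fold change of 0.75 (standard error 0.0288). GYS1, the muscle-type glycogen synthase, was at 24.04, 23.58 and 23.98 TPM in NC and 36.07, 34.45 and 34.02 TPM in KD and rose by 0.53 on the log2 scale (standard error 0.0361). Both had all KD libraries above all NC libraries. PGM1, which links glucose phosphate to glycogen, rose from 60.8 ± 1.31 to 81.5 ± 1.29 TPM, and UGP2, which makes UDP-glucose, from 38.9 ± 1.87 to 45.3 ± 1.29 TPM (SD, n = 3 each). PGM2, the related mutase that prefers pentose phosphates, was not called, at 13.4 ± 1.48 and 12.05 ± 0.917 TPM (SD, n = 3 each). For breakdown, PYGL, the liver-type phosphorylase, was at 17.27, 19.08 and 18.90 TPM in NC and 24.00, 26.63 and 23.59 TPM in KD and rose by a log2 fold change of 0.41 (standard error 0.0629). PYGB, the brain-type phosphorylase, was not called (log2 fold change 0.07, 95% interval -0.03 to 0.18), with overlapping groups. The TPM of GYS1 relative to PYGL was 1.30 ± 0.082 in NC and 1.41 ± 0.11 in KD (SD, n = 3 each), which overlapped.

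A further 72 companion genes of the same pathways, outside the 39, were listed by role, and 43 of them averaged at least 1 TPM. They too were chosen with results known, and no p-value is given for them. Of the 43, 8 were called higher and 9 lower (18.6% and 20.9%, beside 12.1% and 24.0% of all genes tested), and their median log2 fold change was -0.01. The largest of the 43 differences was that of HKDC1, a hexokinase-like enzyme, which was at 32.74, 35.18 and 30.14 TPM in NC and 13.20, 11.77 and 11.47 TPM in KD. It fell, the log2 fold change being -1.36 (standard error 0.0749). PPP1R3B, a subunit that targets a phosphatase to glycogen, was at 2.56, 3.24 and 3.16 TPM in NC and 5.07, 4.84 and 4.69 TPM in KD, and rose by 0.56 on the log2 scale (standard error 0.0947). Of the 15 tested further glycogen genes, 4 were called higher (PPP1R3B, PPP1R3C, STBD1 and PHKB) and 2 lower (GYG1 and PHKA1). GYG1 fell by 0.20 and PHKA1 by 0.36 on the log2 scale (standard errors 0.0251 and 0.0900). The isozymes HK3, PGAM2, PKLR, LDHC, PYGM, GYS2 and FBP1, which belong to blood, liver, muscle or testis, were at most 0.12 TPM in every library, whereas ENO3 lay between 2.39 and 4.14 TPM and was not called.

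The other genes given here were picked after their values were seen. BSG encodes basigin, the chaperone that MCT1 and MCT4 need to reach the cell surface, and was at 981.02, 976.51 and 985.24 TPM in NC and 742.48, 761.10 and 736.35 TPM in KD. It fell by 0.39 on the log2 scale (standard error 0.0168), and BSG was 12.5 ± 0.25 times as abundant in TPM as SLC16A3 in NC and 4.82 ± 0.13 times in KD (SD, n = 3 each). MPC2, a subunit of the carrier that takes pyruvate into mitochondria, fell from 50.04 ± 0.482 to 41.0 ± 1.61 TPM (SD, n = 3 each; -0.28 on the log2 scale, standard error 0.0364), and its partner MPC1 was not called (log2 fold change 0.02, standard error 0.0870). The pentose phosphate branch, which leaves glycolysis at glucose phosphate and supplies NADPH and ribose, had 3 of its 7 tested genes called lower and 2 higher, beside 24.0% and 12.1% of all genes tested. PGD, phosphogluconate dehydrogenase, was at 198.41, 202.27 and 197.63 TPM in NC and 150.49, 150.46 and 150.42 TPM in KD, and fell by 0.40 on the log2 scale (standard error 0.0193). TALDO1 and TKT, the transaldolase and transketolase that return sugars to glycolysis, fell by 0.47 and 0.30 on the log2 scale (standard errors 0.0233 and 0.0234). PGLS, the lactonase, and RPE, the ribulose phosphate epimerase, rose by 0.44 and 0.23 (standard errors 0.0777 and 0.0576).

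Several of the 39 genes have processed pseudogenes or neighbours on the other strand that could share reads. For the 14 genes with pseudogenes named after them, 111 in all, the summed TPM of the pseudogenes was at most 0.469% of that of the parent gene. Of 8 antisense or divergent transcripts named after listed genes, HK2-DT, SLC16A1-AS1 and PDK1-AS1 reached 11.2%, 10.1% and 18.2% of the TPM of their partner. PDK4-AS1 reached 73.7% of the scarce PDK4. The strand used in the counting is not given in the sources used here, and the overlap of these transcripts with their partners was not examined. Whether reads of these pairs were shared is therefore unknown. PDK1-AS1 was at 1.04 TPM in NC and 2.82 TPM in KD on average, and its part in the value of PDK1 was not tested.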

How the data were processed

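RNA of 3 NC and 3 KD libraries of U87-MG cells was sequenced. The authors deposited TPM values with 2 decimals for 61731 genes and loci, 190 of them with MSTRG names, and each library sums to the same total. The submitters' processing notes name fastp, RSEM and the build GRCh38.p13. The aligner, annotation and filters are not given in the sources used here. The labels name a SMARTER kit and the paper a TruSeq kit. Symbols were found for 42045 of 61541 Ensembl identifiers, and coordinates are from GENCODE 29 (GRCh38).

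Genes that averaged 1 TPM or more entered the fit on log2(TPM + 1), by limma 3.58.1 under R 4.3.3 (lmFit, eBayes with trend, group as the term), in place of the t-test the study states, with Benjamini-Hochberg adjustment over all genes. The pseudocount makes fold changes of low genes smaller. Calls needed an adjusted p under 0.05. Standard errors and intervals are from limma. Shares and sums are of TPM and were not tested. The procedure was tested on simulated data. TPM keeps no counts, so no counting error, detection limit or count test was used.

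The 39 genes and the companion genes were chosen with earlier results of these data known. All 39 are named. The rule for naming companion genes was a call and a change of 0.5 or more on the log2 scale, which HKDC1 and PPP1R3B met. Tissue-restricted isozymes are given by their levels, and other companion genes were picked after their values were seen. Some companion genes are not reported here. Alternatives varied the pseudocount, the limit on low values, scaling, mitochondrially encoded genes, the variance trend, a block for replicate number, the fold change threshold, and each replicate left out.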

Additional observations from a re-analysis of the deposited data

How the results depend on the processing

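Among the 38 tested genes, 570 of 606 gene-by-setting values kept their direction and their side of the threshold. The fold change limit is not among these settings. Under all of them, 25 of the 26 called genes kept direction and call, SLC16A1 being the exception with its 9 lost calls. There were 15 calls gained with the direction kept and 12 changes of sign, of which PFKP was also called under both scalings. Leaving out 1 library gave a call to GPI (0.178, without NC replicate 3), PDHA1 (0.175, without KD replicate 2) and DLAT (-0.239, without KD replicate 1). The count of 26 calls was 25 to 32, with 22 to 29 higher and 3 or 4 lower, except that 2 genes passed a log2 fold change limit of 1 as well. That second count was 4 with median-of-ratios scaling and 1 to 2 when a replicate was left out. It was 1 without NC replicate 3. For the 17 companion calls, 1 passed the limit of 1, and the count of 8 higher was 5 with no limit on low values and 5 to 8 when a replicate was left out, with 5 without NC replicate 2, KD replicate 2 or KD replicate 3. The cause was not tested.

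With median-of-ratios and quantile scaling the median of all genes went from -0.06 to 0.002 on the log2 scale, and the share of all calls that were lower from 66.5% to 49.4% and 50%. The median of the listed genes was 0.313 with median-of-ratios scaling and 0.223 with quantile normalization. With median-of-ratios scaling, the log2 ratios of summed TPM became 0.081 (hexokinase), 0.057 (phosphofructokinase), 0.462 (aldolase), 0.37 (enolase), 0.647 (lactate dehydrogenase), 0.696 (lactate transport), 0.437 (glycolytic enzymes) and 0.459 (all listed genes). With quantile normalization, which gives the top ranks the same value in every library, they were 0.078, 0.055, 0.253, 0.195, 0.557, 0.674, 0.286 and 0.319 in the same order. Without mitochondrially encoded genes, lactate dehydrogenase was 0.565.

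Signs changed for genes near 0. With median-of-ratios and quantile scaling, HK1 became 0.034 and 0.029, PFKP 0.061 and 0.063, and PFKFB3 0.056 and 0.064. LDHB became -0.034 with quantile normalization, -0.01 without mitochondrially encoded genes and -0.004 to 0.01 when a replicate was left out, and PFKFB3 was -0.052 to 0.023 in the latter fits. The share of PFKP moved by -0.285 to 0.69 percentage points when a replicate was left out, from 0.212.

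Same-numbered NC and KD libraries had correlations of deviations from the group means of -0.02, 0.034 and 0.033, so no shared effect of replicate number was seen. Such values cannot show whether the libraries were prepared in pairs, and the labels do not say. With the replicate block there were 26 listed genes called, 23 higher and 3 lower, and 4007 of all genes in place of 4955. The depth of the libraries is unknown, so what it limits cannot be given.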
